A study of Mus musculus with 8 samples.

Results

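The miR-148 and miR-152 family is a set of mature microRNAs (miRNAs, short RNAs that guide the repression of messenger RNAs) made from the hairpins Mir148a, Mir148b and Mir152. Its members were taken by name alone, as every entry of the count table for miR-148a, miR-148b or miR-152, which gave 5 of the 387 listed miRNAs: mmu-miR-148a-3p, mmu-miR-148a-5p, mmu-miR-148b-3p, mmu-miR-148b-5p and mmu-miR-152-3p. Small RNA was sequenced from sperm of C57BL/6 mice, adults aged 2 months, in 8 samples labelled F0. They formed 2 groups of 4, Exposed and Trained, after treatments related to smell. The table's heading spells the second group AceTrained, and the labels describe neither treatment further. Samples without either treatment were not analysed here. The labels do not state whether each sample was a different animal or a pool, and the replicate error behind each p-value may thus be technical.

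A miRNA hairpin is cut into a 5p and a 3p arm, and usually one of them is loaded into an Argonaute protein and the other is degraded. The loaded strand finds its targets mainly through its seed, the bases near its 5′ end, so miRNAs with the same seed have overlapping targets. The 3p arms of this family are known, from work in human cells, to repress the maintenance DNA methyltransferase DNMT1, and miR-148a is known in mouse liver as a repressor of the low-density lipoprotein receptor. Mature sperm are nearly silent in transcription, and their small RNAs are carried from the testis or acquired in the epididymis.

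The sequences are shown because the members are told apart by a few bases. They come from RefSeq on GRCm38.p6, run 5′ to 3′, and capitals mark the seed, bases 2 to 8.
miR-148a-3p: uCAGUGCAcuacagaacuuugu
miR-148b-3p: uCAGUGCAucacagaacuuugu
miR-152-3p: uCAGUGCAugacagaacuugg
miR-148a-5p: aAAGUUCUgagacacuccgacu
miR-148b-5p: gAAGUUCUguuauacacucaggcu

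All 3 of the 3p arms carried the seed CAGUGCA, and among 1679 mature mouse miRNAs in the RefSeq table no other had it at these positions. Counted from 1 at the 5′ end, miR-148a-3p and miR-148b-3p differ by C9U and U10C and are the same at the other 20 of 22 positions. From miR-148b-3p to miR-152-3p the changes are C10G and U20G over 21 positions. Reads of these paralogues are therefore close in sequence, and the number of mismatches allowed in counting is not given in the sources used here, so a small part of the split between them is uncertain. The 5p arms share a different seed, AAGUUCU, in miR-148a-5p and miR-148b-5p.

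The hairpins lie apart in the genome. In GRCm38, Mir148a is on chromosome 6 from 51269812 to 51269910 on the minus strand and overlaps no other annotated gene, with Npvf and Nfe2l3 as the nearest protein-coding genes at 615 and 163 kb. Mir148b lies within an intron of Copz1 on chromosome 15, from 103285125 to 103285221, and Mir152 within an intron of Copz2 on chromosome 11, from 96850393 to 96850465. Copz1 and Copz2 are paralogues that encode the zeta subunits of the COPI vesicle coat. Both of these hairpins are on their host's strand, and no exon of the host overlaps them.

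Library totals, the reads assigned to listed miRNAs, ran from 193013 in Exposed 4 to 261903 in Trained 3. The identity of the tissue was checked with miRNAs of male germ cells, of which 14 of 14 named were listed and which held 31.3% to 36.9% of each library. Markers of other cells were also present: smooth muscle and stroma miRNAs summed to between 7323 and 15491 CPM (reads scaled to a common library total), with the highest value in Exposed 2, and red blood cell miRNAs reached 11599.7 CPM in Trained 3. Summed miRNAs of leukocytes (2197 to 9274 CPM), epithelium (1844 to 3509 CPM) and striated muscle (1298 to 3078 CPM) were also present, and the liver miRNA miR-122-5p ran from 0 to 38.3 CPM. In such bulk samples, fewer cells of a type and less RNA per cell cannot be told apart. Within a group the counts of no library repeated those of another, since their chi-square was at least 3.31 per degree of freedom. Pairs across the groups were not compared in this way. Each library counted as 1 sample.

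Levels are given as CPM of the library total. miR-148a-3p led the family and ranked 10 of all 387 miRNAs, and it held 88.4% to 90.5% of the family's reads in every library. In Exposed 1 to 4 it stood at 26657, 20220.2, 26386 and 20786 CPM. In Trained 1 to 4 it stood at 21345, 25260.4, 27384 and 21985 CPM. Each group had a high and a low pair of libraries, and the groups overlapped. The SD in Exposed was 14.8% of the mean, where counting alone gives 1.41%. Exposed averaged 23512.5 ± 3484 CPM and Trained averaged 23994 ± 2837 CPM (SD, n = 4 each). Its neighbours by abundance over all 8 libraries were miR-128-3p at 27056 ± 3736 CPM and let-7g-5p at 23473 ± 3245 CPM, and neither stood apart from miR-148a-3p (23753 ± 2953 CPM) by more than the spread.

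miR-148b-3p, which has the same seed, ranked 63 and made up 7.83% to 9.30% of the family's reads. Its levels were 2336, 2082, 2283 and 2186 CPM in Exposed 1 to 4, a mean of 2222 ± 112 CPM (SD, n = 4). In Trained 1 to 4 they were 2000.3, 2528, 2741.5 and 2191 CPM, a mean of 2365 ± 333 CPM (SD, n = 4). Trained held both the lowest and the highest library, so its range enclosed that of Exposed. By abundance it lay between miR-883a-3p (2378 ± 303 CPM over 8 libraries) and miR-449a-5p (2240.0 ± 224 CPM), within the spread of each.

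miR-152-3p ranked 117. It had 93, 91, 94 and 85 reads in Exposed 1 to 4, which is 384.5, 435.6, 368.7 and 440.4 CPM. In Trained 1 to 4 it had 76, 85, 87 and 84 reads, or 303.4, 326.1, 332.2 and 350.5 CPM. Every Trained library lay below every Exposed library, and the Trained mean of 328.0 ± 19.4 CPM was 0.805 of the Exposed mean of 407.3 ± 36.1 CPM (SD, n = 4 each). Such a separation, with Trained lower, was found in 3 of 226 tested miRNAs, or 1.33%, and the opposite one in 0.885%. On the TMM scale of the edgeR fit it was found in 5 of 226, or 2.21%, miR-152-3p among them. The SD of the 4 Exposed libraries, 8.86% of the mean, was no larger than the 10.5% that counting at this depth gives. Its neighbours miR-541-5p (393.3 ± 43.5 CPM) and miR-467c-5p (366.6 ± 45.0 CPM) did not stand apart from it (367.7 ± 50.1 CPM) over 8 libraries.

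**Figure D1:**
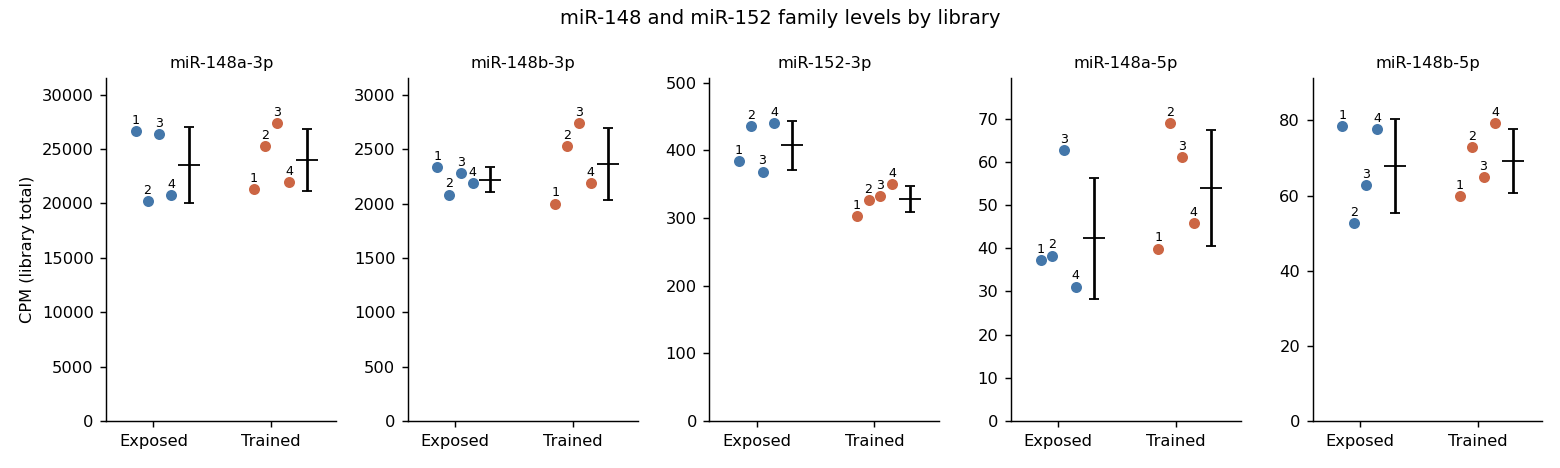
CPM of the 5 members in each library (points, with the replicate number above each) and the group mean with its SD (black). Each panel has its own axis from 0; for miR-152-3p the Exposed points (368.7 to 440.4 CPM) lie above the Trained points (303.4 to 350.5 CPM), while the other panels overlap.

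The 5p arms were rare. miR-148a-5p had 9, 8, 16 and 6 reads in Exposed 1 to 4 and 10, 18, 16 and 11 in Trained 1 to 4, or means of 42.3 ± 14 against 54.0 ± 13.4 CPM (SD, n = 4 each). miR-148b-5p had 19, 11, 16 and 15 reads against 15, 19, 17 and 19, or 67.9 ± 12.5 and 69.2 ± 8.6 CPM. Counting alone gives an SD of 34.1% of the mean for miR-148a-5p in Exposed, close to the 33.0% found, so differences between its libraries were not resolved at this depth. The 5p arm of Mir152 was not analysed here.

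Trained was compared with Exposed by edgeR's quasi-likelihood test over 226 miRNAs with TMM scaling, to ask whether sperm miRNAs differed between the treatments. Of the 5 members, all of which passed the count filter, 0 passed a false discovery rate (FDR) of 0.05, against a background of 0% of all tested miRNAs. DESeq2 and limma-voom also called 0 members. At an unadjusted p under 0.05 edgeR, DESeq2 and limma-voom each gave 1 member, miR-152-3p, where 4.42% of all miRNAs (9 lower and 1 higher) had such a p in edgeR. The median log2 fold change, Trained over Exposed, was -0.0028 over the 5 members and 0.0049 over all 226.

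The fitted log2 fold change of miR-152-3p was -0.34 (SE 0.13, 95% interval -0.62 to -0.06, FDR = 0.998 by edgeR), with the fourth smallest unadjusted p of the table, 0.0229. The value was -0.29 to -0.38 when any 1 library was left out, with an unadjusted p from 0.0242 to 0.0781 by edgeR. Levels of miR-152-3p were set beside library totals. Its Exposed reads were nearly flat (93, 91, 94 and 85), so its CPM falls by arithmetic as the total rises. The SD of its Exposed CPM, 8.86% of the mean, was also within the 10.5% of counting. Within Exposed the order of miR-152-3p CPM was the reverse of the order of library totals, from 440.4 CPM at a total of 193013 in Exposed 4 to 368.7 CPM at 254944 in Exposed 3. Within Trained the order was not reversed: the smallest total (239664, Trained 4) had the highest level, 350.5 CPM, but the lowest level, 303.4 CPM, was at 250458 in Trained 1, below both larger libraries. With the log2 library total as a covariate the log2 fold change was -0.23 (FDR = 0.771 by edgeR), and without Exposed 2 and Exposed 4, the libraries with the smallest totals, it was -0.22 (FDR = 0.925 by edgeR). All 4 tested smooth muscle and stroma miRNAs had negative fitted values too, from -0.49 (miR-143-3p) to -0.04 (miR-199a-3p). The list's summed level was 8051 to 15491 CPM in Exposed, highest in Exposed 2, and 7323 to 8580.3 CPM in Trained. Library by library it went with miR-152-3p only in part. Both rose from Exposed 3 to Exposed 1 to Exposed 2. The sums there were 9080.4, 10306.6 and 15490.7 CPM, against miR-152-3p levels of 368.7, 384.5 and 435.6 CPM. Exposed 4, however, had the highest miR-152-3p level and the lowest Exposed sum, 8051 CPM. Trained 1 had the lowest miR-152-3p level and the highest Trained sum, 8580.3 CPM. A fit with that list as a covariate, added after seeing the data, gave -0.32 (FDR = 0.995 by edgeR), and no cause was read from it. Other markers had negative fitted values too. For striated muscle these were 2 of 3 tested (median log2 fold change -0.85, against -0.18 for smooth muscle and stroma), with summed levels of 1736 to 3078 CPM in Exposed and 1298 to 1853 CPM in Trained. For epithelium they were 3 of 3 (median -0.21; 1993 to 3509 and 1844 to 2459.5 CPM). Blood markers went the other way in their fitted values, but their summed levels overlapped between the groups. Of red blood cell miRNAs 4 of 4 tested had positive fitted values (median 1.22; 229.8 to 4134.4 CPM in Exposed, 241.7 to 11599.7 CPM in Trained). Of leukocyte miRNAs 3 of 4 did (median 0.55; 2197.2 to 6082.5 and 2689.1 to 9274.4 CPM). Trained 3 had the highest sum of both lists. The germ cell median was -0.01. The part of library totals or of these markers in the miR-152-3p difference was not tested. The fits with the library total as a covariate and without Exposed 2 and Exposed 4 were also added after seeing the data. The authors' deposited table gave miR-152-3p a log2 fold change of -0.33 with a p-value of 0.182.

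For the other members the intervals included 0. The log2 fold change of miR-148a-3p was -0.0028 (SE 0.14, 95% interval -0.32 to 0.31), so a difference of more than about 0.3 on the log2 scale either way lay outside the interval. Its sign was positive with library totals in place of TMM factors (0.03), and the value was -0.22 with the library total as a covariate and -0.17 without Exposed 2 and Exposed 4. miR-148b-3p stood at 0.06 (SE 0.12, interval -0.21 to 0.33), and ranged from 0.0057 without Trained 3 to 0.14 without Trained 1, and was -0.05 with the library total as a covariate. miR-148a-5p stood at 0.29 (SE 0.27, interval -0.31 to 0.90), and was 0.58 without Exposed 3, 0.18 without Trained 2, 0.09 without Exposed 2 and Exposed 4, and -0.08 with the library total as a covariate. miR-148b-5p was at -0.0040 (SE 0.17, interval -0.39 to 0.38) and was positive (0.03) with library totals.

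**Figure D2:**
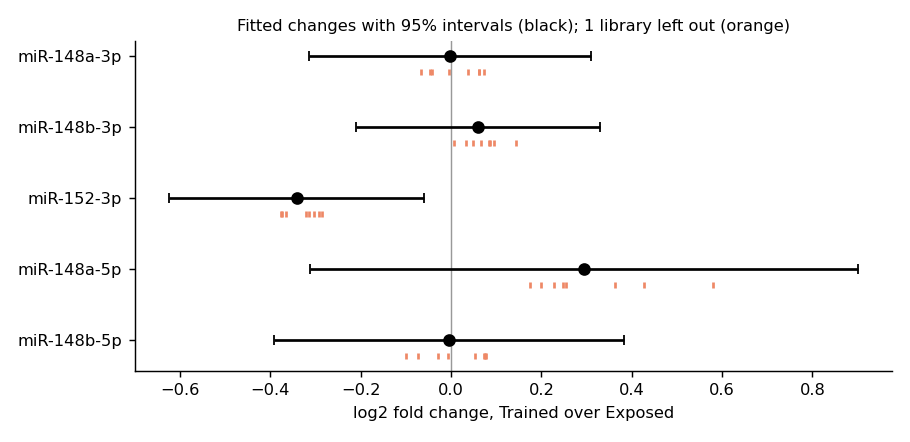
Fitted log2 fold change of each member, Trained over Exposed, with its 95% interval (black) and the 8 values obtained by leaving out 1 library (orange ticks). Only the interval of miR-152-3p (-0.62 to -0.06) lies on one side of 0, and its FDR is 0.998.

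Ratios within a library do not depend on scaling, and 5 were computed: 3 between the 3p paralogues and 2 between arms. Their p-values come from two-sided exact permutation tests over 70 assignments of samples to groups, for which 0.0286 is the smallest possible, with Benjamini-Hochberg adjustment over the 5. These ratios were proposed with earlier results of the same data known, so their p-values are no independent evidence.

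The ratio of miR-148b-3p to miR-152-3p asks whether the split between these paralogues differed between the groups. It was 6.08, 4.78, 6.19 and 4.96 in Exposed 1 to 4 and 6.59, 7.75, 8.25 and 6.25 in Trained 1 to 4. Each Trained library lay above each Exposed library, although Trained 4 (6.25) and Exposed 3 (6.19) nearly met. The mean log2 ratio was 0.39 higher in Trained (SE 0.14, a 1.31-fold ratio, exact permutation p = 0.0286, adjusted p = 0.143). It did not pass the adjusted threshold, which a lone ratio at the smallest possible p could not do, so this decides nothing. Over all 25425 pairs of tested miRNAs, 2.71% of ratios did not overlap between the groups. The difference was 0.32 to 0.46 with any 1 library left out, and 0.22 without Exposed 2 and Exposed 4.

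The ratio of miR-148a-3p to miR-152-3p was 69.3, 46.4, 71.6 and 47.2 in Exposed 1 to 4 and 70.3, 77.5, 82.4 and 62.7 in Trained 1 to 4. Exposed 1 and Exposed 3 lay within the Trained range, while Exposed 2 and Exposed 4 lay below all other libraries. The log2 difference was 0.34 (SE 0.19, exact permutation p = 0.171, adjusted p = 0.333), and it was 0.0487 without Exposed 2 and Exposed 4. In CPM the highest library was 1.45-fold the lowest for miR-152-3p, 1.35-fold for miR-148a-3p and 1.37-fold for miR-148b-3p. In unscaled reads, which carry library depth, the order was the other way, with 1.24-fold for miR-152-3p (76 to 94 reads) and 1.79-fold for miR-148a-3p (4012 to 7172 reads).

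Of the 3 paralogue ratios, that of miR-148a-3p to miR-148b-3p had the smallest SD in each group. miR-148a-3p had 11.4, 9.71, 11.6 and 9.51 reads per read of miR-148b-3p in Exposed 1 to 4 and 10.7, 9.99, 9.99 and 10 in Trained 1 to 4. The log2 difference between groups was -0.05 (SE 0.08, exact permutation p = 0.571, adjusted p = 0.714), and it was -0.0011 without Exposed 3, -0.09 without Exposed 4, and -0.18 without both Exposed 2 and Exposed 4. Exposed 2 and Exposed 4 again lay together, at the low end of the range.

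**Figure D3:**
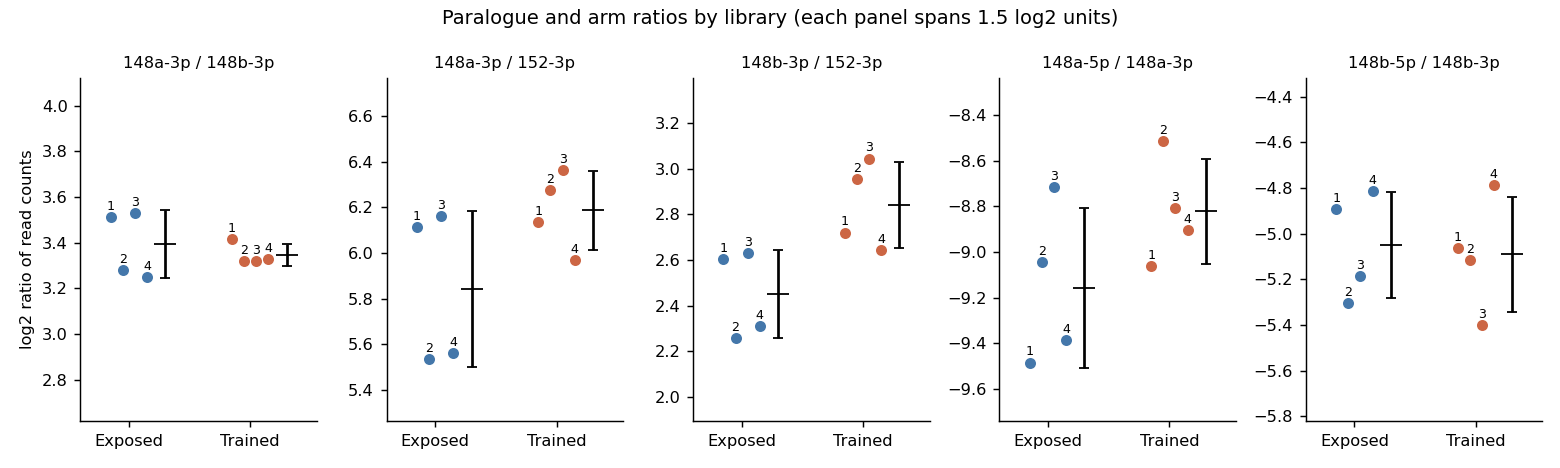
Log2 ratio of read counts for 5 pairs of members in each library (points with replicate numbers), with group means and SD (black); every panel spans the same height. In the panel for miR-148b-3p over miR-152-3p the Trained points lie above the Exposed points, and the other 4 panels overlap.

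Levels of miR-148a-3p and miR-148b-3p went together across the 8 libraries, with Pearson r = 0.811 (exact permutation p = 0.0103, adjusted p = 0.0621 over 6 pairs of members) and Spearman rho = 0.857 (exact permutation p = 0.0107, adjusted p = 0.0643). Neither passed after adjustment. Such a correlation was not particular to the family. On TMM-scaled CPM the pair had r = 0.832. The closest of 154 miRNAs outside the family had 0.973 with miR-148a-3p (miR-7a-5p) and 0.937 with miR-148b-3p (miR-92a-3p). With each group centred on its own mean r was 0.821, and without Exposed 2 and Trained 3, the libraries farthest from the median, r was 0.716 (exact permutation p = 0.0958, n = 6). Neither correlation of miR-152-3p with the other 3p arms passed, with r = -0.374 against miR-148a-3p (exact permutation p = 0.343, rho = -0.333 with p = 0.428, adjusted p = 0.412 and 0.513) and r = -0.267 against miR-148b-3p (exact permutation p = 0.524, rho = -0.190 with p = 0.665, adjusted p = 0.524 and 0.665). Without the farthest 2 libraries these were -0.0351 and 0.311, and without Trained 1 alone they were -0.701 and -0.778 (exact permutation, adjusted p = 0.108 and 0.0841), so their size depended on single libraries. Without Exposed 2 alone they were -0.147 and -0.0944. Levels in one library share their total, so these values are not free of one another. miR-148a-5p correlated with its own 3p arm at r = 0.672 (exact permutation p = 0.0818, rho = 0.452 with p = 0.267, adjusted p = 0.164 and 0.401), which was 0.578 without Exposed 2 and Trained 3. The other pairs tested, miR-148a-5p with miR-148b-3p (r = 0.673, rho = 0.524, adjusted exact permutation p = 0.164 and 0.393) and with miR-152-3p (r = -0.584, rho = -0.667, adjusted exact permutation p = 0.201 and 0.249), did not pass, and were 0.266 and -0.128 without the 2 farthest libraries.

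**Figure D4:**
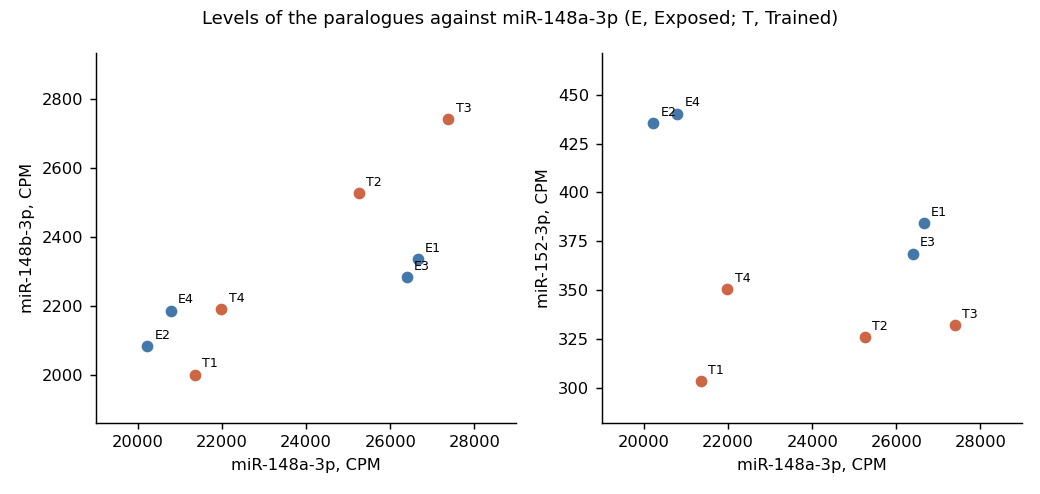
CPM of miR-148b-3p (left) and miR-152-3p (right) against CPM of miR-148a-3p in the 8 libraries (E, Exposed; T, Trained); the axes do not start at 0. The left panel has r = 0.811 on log2 CPM, and in the right panel the Exposed points (368.7 to 440.4 CPM) lie above the Trained points (303.4 to 350.5 CPM).

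Arm balance set the hairpins apart from each other. For Mir148a the 5p arm held 0.139%, 0.189%, 0.237% and 0.149% of the hairpin's reads in Exposed 1 to 4, and 0.187%, 0.273%, 0.223% and 0.208% in Trained 1 to 4. The 95% Wilson intervals were wide and overlapped (0.0733% to 0.265% in Exposed 1, 0.173% to 0.431% in Trained 2), and cover counting error only. The log2 ratio of the arms was 0.34 higher in Trained (SE 0.21, exact permutation p = 0.200, adjusted p = 0.333), and 0.23 without Exposed 1. Mir148b kept more of its 5p arm, 2.96% ± 0.46 in Exposed and 2.88% ± 0.48 in Trained (SD, n = 4), with a log2 difference of -0.04 (SE 0.17, exact permutation p = 0.857, adjusted p = 0.857) whose sign turned without Exposed 1, Exposed 4 or Trained 3.

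In every library the 5p share of Mir148b, 2.31% or more, was above that of Mir148a, 0.273% or less. Among 90 hairpins listed with both arms, Mir148a was the sixth most one-sided, with 94 reads of 5p against 45783 of 3p over all libraries (0.205%). Mir148b came at place 25 (2.89%), and the median hairpin had 14.2% of its reads on the lesser arm. Hairpins with an unlisted arm, or with arms under different names, were left out, so more one-sided hairpins may be missing from this rank and median. Of the 90, 13 had under 1% on the lesser arm, and 37 had most reads on the 3p side, as both of these hairpins did.

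**Figure D5:**
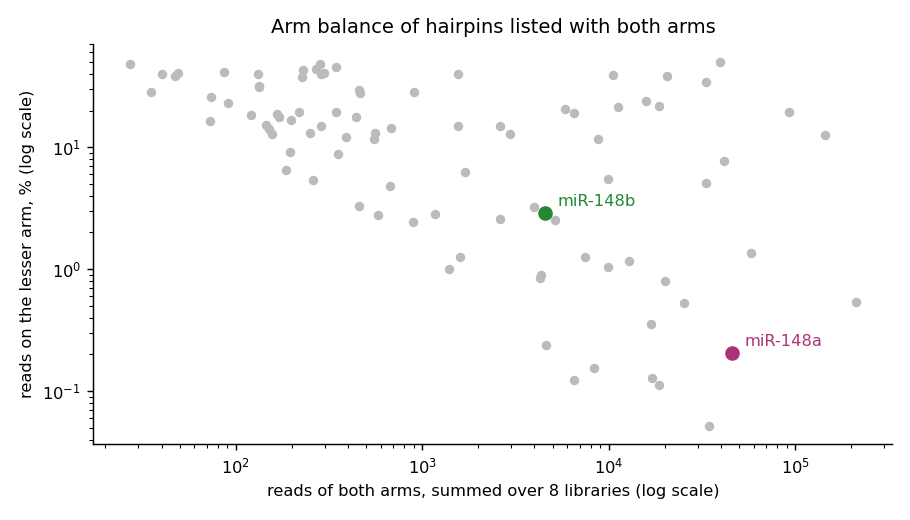
Share of reads on the lesser arm against the total reads of both arms, for 90 hairpins listed with both arms, summed over 8 libraries (both axes log scale). miR-148a (0.205%) sits near the bottom and miR-148b (2.89%) below the median of 14.2%.

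The miRNAs whose levels were most like those of the members over the 8 libraries were sought among 154 others with at least 100 CPM, by Pearson r of log2 TMM-scaled CPM, as a description with no test. For miR-148a-3p they were miR-7a-5p (r = 0.973), miR-532-5p (0.968) and miR-92a-3p (0.958). miR-148b-3p shared miR-92a-3p (0.937) and miR-7a-5p (0.883) with it, beside miR-409-3p (0.889). miR-152-3p was most like let-7e-5p (r = 0.81), miR-1306-5p (0.806) and miR-125a-5p (0.756), whose own log2 fold changes were -0.43, -0.30 and -0.43 (FDR = 0.998 each by edgeR), none of which passed the test. None of the 3 miRNAs nearest to miR-152-3p was among those nearest to its paralogues. The r values span both groups without centring, and miR-152-3p was lower in every Trained library. The choice thus favours miRNAs lower in Trained, so these signs and the lack of shared neighbours are no separate result.

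Other miRNAs known, mostly from work in human cells, to repress DNA methyltransferases gave a list of 7, chosen with earlier results of these data known, of which 6 were listed and tested. Of these, 0 passed FDR 0.05, and 4 had positive and 2 negative fitted values (median log2 fold change 0.07, against 0.0049 over all miRNAs, -0.05 without Trained 3 and 0.0051 without Exposed 3). miR-29a-3p and miR-29b-3p, repressors of DNMT3A and DNMT3B, were at 0.14 (0.08 without Trained 3) and 0.0056 (-0.25 without Trained 3). miR-143-3p, a repressor of DNMT3A that is abundant in smooth muscle, was at -0.49 (FDR = 0.998 by edgeR; -0.25 without Exposed 2). miR-126a-3p, an endothelial miRNA, was at -0.34 (-0.14 without Exposed 2) and miR-185-5p at 0.30 (0.19 without Exposed 1). miR-342-3p was at 0.57, and at 0.36 without Trained 3, the library with the highest summed leukocyte miRNAs (9274 CPM). The part of leukocytes in that value was not tested. miR-126a-3p, miR-185-5p and miR-342-3p are known as repressors of DNMT1. The members of the miR-148 and miR-152 family with the same known target, miR-148a-3p at 23753 CPM, miR-148b-3p at 2293.5 CPM and miR-152-3p at 367.7 CPM over all libraries, had means above those of miR-126a-3p, miR-185-5p and miR-342-3p, whose group means lay between 55.8 and 286.4 CPM.

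Another 3 listed miRNAs carry the last 6 bases of the family's seed, AGUGCA, shifted by a base, namely miR-130a-3p, miR-130b-3p and miR-301a-3p. miR-130a-3p, the one that passed the count filter, had means of 49.8 ± 10.6 against 50.3 ± 4.1 CPM (Exposed, Trained; SD, n = 4 each; log2 fold change -0.02, FDR = 0.998 by edgeR). The family as a whole held 2.63% ± 0.36 of library reads in Exposed and 2.68% ± 0.32 in Trained (SD, n = 4), from 2.28% in Exposed 2 to 3.06% in Trained 3.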

How the data were processed

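Per the labels' protocols, sperm RNA came from a Qiagen miRNeasy kit, and a NextSeq500 gave single-end reads of 50 nt. The authors deposited whole-number read counts per mature miRNA, with group means of the counts (a score with no error, not used), log2 fold changes, average log2 CPM, p-values and FDR. The submitters' processing notes name edgeR. For the aligner, miRNA reference, build and mismatches allowed, the sources used here state nothing.

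Counts were tested with edgeR 4.0.16 (R 4.3.3): TMM factors, the default filter by group (226 kept; 161 left out held 0.258% of counts), robust quasi-likelihood F tests, Benjamini-Hochberg adjustment over all tested miRNAs. Standard errors are the log2 fold change divided by the square root of F. The method was tested on simulated data. Ratios and correlations used exact permutation tests (Python 3.11.15). Library totals were 193013 to 261903 reads; intervals on shares are Wilson 95% and cover counting error only, since no molecular identifiers are named.

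Groups and replicate numbers came from sample titles. The members, lists, ratios and naming rule (every family entry, neighbours in rank, the 3 most alike miRNAs per 3p member, the DNA methyltransferase list) were chosen with earlier results of these data known. Sequences and positions are from RefSeq and GENCODE M21 on GRCm38, and 310 of 387 names had a sequence. Alternatives were other scaling (RLE, library total, upper quartile, totals without 10 abundant miRNAs), other filters (none, 10 CPM in 4 libraries), DESeq2 1.42.0, limma-voom (limma 3.58.1), no robust estimation, a replicate block, single libraries left out, and for ratios 0.5 added to counts and group medians. Covariates and leaving out Exposed 2 with Exposed 4 were added after seeing the data.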

Additional observations from a re-analysis of the deposited data

Results flagged for a closer look

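One value of the family stood far from the others of its group. In Trained 1 the log2 ratio of miR-148a-3p to miR-148b-3p was 3.42, where the other 3 Trained libraries lay between 3.32 and 3.33. The gap was 0.928 of the group's range, above the critical value of 0.829. It was 1 of 22 groups of values examined in this way, and chance flags about 1 in 20. The ratio in Trained 1 lay within the range of the Exposed libraries (log2 3.25 to 3.53).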

How the results depend on the processing

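None of the 21 alternatives, with edgeR, DESeq2 or limma-voom, called a member, a miRNA of the DNA methyltransferase list or any other miRNA at FDR 0.05 (5 to 18 miRNAs had an unadjusted p under 0.05, against 10). miR-152-3p stayed negative in all 21, from -0.38 to -0.22, and its unadjusted p ran from 0.0202 to 0.132. The values of miR-148a-3p and miR-148b-5p, both near 0, turned sign with library totals (0.0292 and 0.0269), no count filter (0.0155 and 0.0161), the 10 CPM filter (0.0093 and 0.00938) and totals without the 10 most abundant miRNAs (0.0198 and 0.0211). miR-148a-3p also turned with limma-voom (0.000416) and the replicate block (0.00172). With the library total as a covariate, miR-148b-3p was -0.0459, miR-148a-5p -0.0808 and miR-148b-5p 0.0136. The cause of these turns was not tested. Leaving out 1 library gave -0.0656 to 0.0724 for miR-148a-3p, -0.0991 to 0.0779 for miR-148b-5p, and -0.143 to 0.0609 for the log2 arm ratio of Mir148b.

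The correlation of miR-148a-3p with miR-148b-3p ran from r = 0.763 to 0.870 with 1 library left out and passed its adjusted threshold in 2 of these 8, and that of miR-148a-3p with miR-148a-5p from 0.586 to 0.907, passing in 1. No ratio passed its adjusted threshold under any of 12 alternatives each, but a ratio that alone reached the smallest possible p could not have passed. Whether same-numbered samples paired was not settled. Their deviations correlated at -0.393 (number 1), 0.695, 0.684 and 0.538 (numbers 2 to 4). Exposed 2 and Exposed 3 correlated best with their own number, but Exposed 1 and Exposed 4 with another (0.322 with Trained 2 and 0.607 with Trained 3). The replicate block called 0 members (miR-152-3p at -0.341, unadjusted p = 0.0629, edgeR) and gave an exact p = 0.125 for the ratio of miR-148b-3p to miR-152-3p, the smallest that 4 pairs allow. Depth limits the 5p arms, which had 6 to 19 reads per library.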
